A study of Rattus norvegicus with 6 samples.

Results

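Genes that make, break down and bind hyaluronan were followed in rat toe flexor muscle after acute osteofascial compartment syndrome (ACS), in which swelling inside a closed muscle compartment raises the pressure and limits blood flow. The set was given as 9 gene symbols and holds the hyaluronan synthases Has1, Has2 and Has3, the hyaluronidases Hyal1 and Hyal2, the hyaluronan-depolymerising protein Cemip, the receptor Cd44, and the binding proteins Tnfaip6 and Vcan. Each symbol matched 1 row by gene name, so the set is 9 of the 30957 genes in the deposited table. The flexor digitorum longus of the hind limb of wild-type Sprague-Dawley rats gave 3 control libraries at 0 h and 3 ACS libraries at 18 h. With no control at 18 h, ACS and the time passed cannot be told apart. ACS was produced by tying a band of low elasticity through the skin around the knee, and the labels enter ACS as the treatment of all 6 libraries, so the titles gave the groups. The age of the rats, their number and any sharing of a rat between libraries remain unknown from the labels, so p-values cover only the spread between these libraries, which may be technical.

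Hyaluronan is a long, unsulfated sugar chain that fills the space between cells and holds water. Synthases in the plasma membrane build it from UDP-glucuronic acid and UDP-N-acetylglucosamine and push it out of the cell, where surface and lysosomal hyaluronidases later shorten it. Receptors such as Cd44 tether it to cells, and many copies of versican can bind along the chain. The protein encoded by Tnfaip6, known as TSG-6, moves heavy chains of inter-alpha-inhibitor onto hyaluronan. In muscle the chain lies in the connective tissue around fibres, bundles and the fascia.

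Library totals ran from 14340865 to 21003928 counts. Mitochondrial genes took 7.52% to 8.60% of the counts in control, 43.4% in ACS replicate 1, and 4.82% and 5.33% in ACS replicates 2 and 3, so ACS replicate 1 stood apart. The muscle fibre markers Acta1, Ckm, Mylpf and Tnnt3 were abundant in every library, with a summed level of 55643 to 79708 CPM (counts scaled to library size, after TMM) in control and 36355 to 89846 CPM in ACS. The neutrophil markers rose in 5 of 5 in edgeR (0 in limma-voom), from a summed 1.31 to 5.95 CPM in control to 24.9 to 362 CPM in ACS, and none was at 0 in control. They held 3 to 51 counts in a control library and needed their ACS libraries to pass the filter on low counts, and 3.43% of all tested genes were called higher. In edgeR 0 of 5 fibroblast markers passed, with sums of 690 to 1076 and 2318 to 2960 CPM, and 0 of 5 macrophage markers, with sums of 19.7 to 35.0 and 27.7 to 156 CPM. Of 6 tendon and synovial lining markers 0 passed, with sums of 49.2 to 104 CPM in control and 1545, 382 and 116 CPM in ACS replicates 1, 2 and 3. In each of these 3 lists 4 markers had an unadjusted p under 0.05, with a positive fold change except for the macrophage marker Adgre1 (log2 fold change -1.30, each ACS library below each control library), and DESeq2 called 2, 3 and 2 higher while limma-voom called 0. Of 3 lymphatic markers edgeR called 0 (2 at an unadjusted p under 0.05) and DESeq2 2, and Schwann cell markers gave 0 of 3 (1 at an unadjusted p under 0.05) and 1 lower in DESeq2. Endothelial, smooth muscle and muscle fibre markers gave 0 calls in edgeR, limma-voom and DESeq2, and 0 at an unadjusted p under 0.05. The T cell markers were too low for the edgeR test, summing to at most 1.12 CPM in any library. The part of these cell types in the results below was not tested, nor was that of the mitochondrial share beyond an alternative scaling given at the end. In whole muscle more cells of a type and more RNA per cell cannot be told apart.

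Of the 9 genes, 3 rose in ACS muscle and 0 fell. These were Has1, Cd44 and Vcan, by log2 fold changes of 5.29, 3.53 and 4.41. Calls rest on edgeR's quasi-likelihood test over 12873 genes with a Benjamini-Hochberg adjusted p under 0.05, which called 3.43% of all tested genes higher and 0.707% lower. In 5 of the 9 every ACS library lay above every control library, as in 16.7% of all tested genes, and the further 2 were Hyal1 and Tnfaip6. The median log2 fold change over the 9 genes was 1.76, against -0.01 over all tested genes. All 9 passed the filter on low counts, Has1 through its ACS libraries alone, since its control libraries held 7, 9 and 2 counts.

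**Figure D1:**
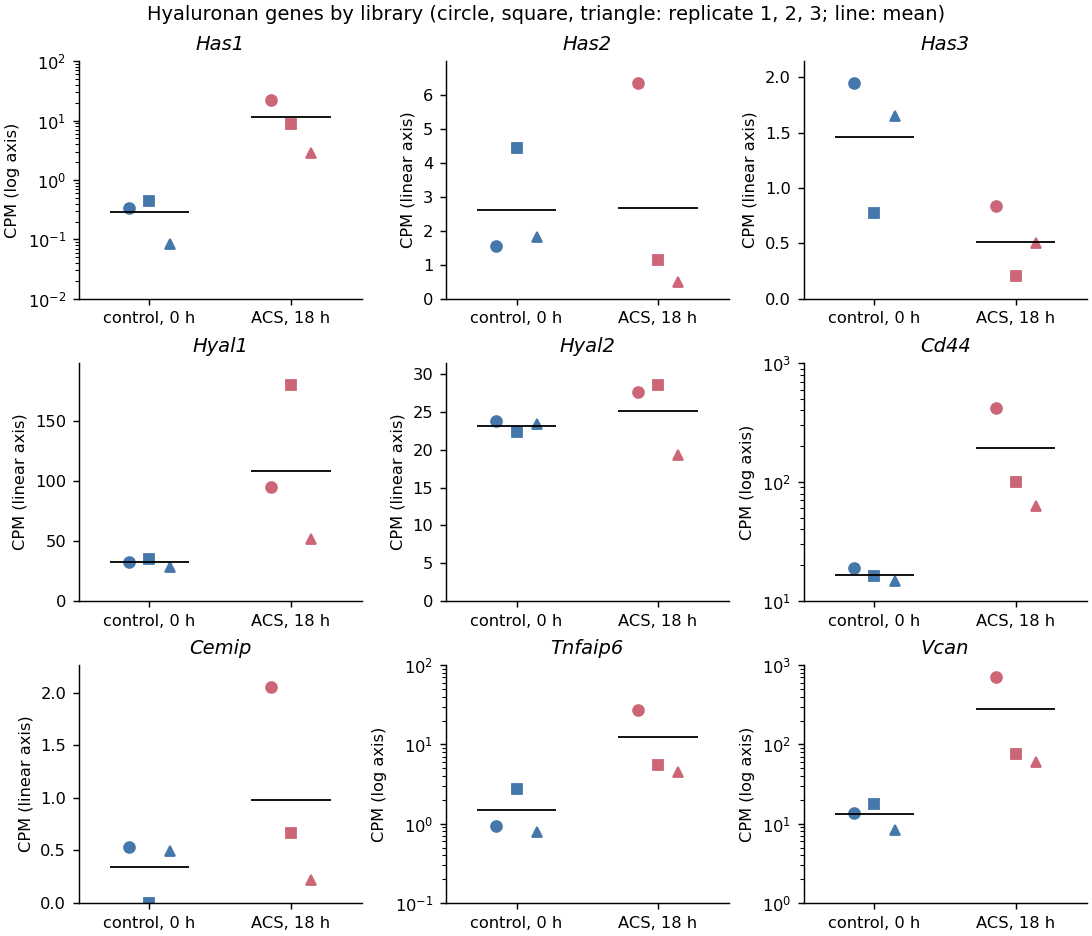
Expression of the 9 hyaluronan genes in CPM, with log or linear axes as marked, for 3 control libraries at 0 h (blue) and 3 ACS libraries at 18 h (red), and group means as lines. Has1, Hyal1, Cd44, Tnfaip6 and Vcan have no overlap between groups, and ACS replicate 1 is the highest library for all of these but Hyal1.

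Promoter sequence is shown for Tnfaip6 and Vcan, both higher in every ACS library, as the 250 bases before the gene's start in RefSeq on the rat build GRCr8. Capitals mark matches to AP-1 (TGANTCA) or C/EBP (TTNNGNAA), and NF-kB (GGNNTTTCC) and the hypoxia element (ACGTG) were also searched, on both strands. The Tnfaip6 stretch is chr3:56911148-56911397 on the plus strand and the Vcan stretch chr2:22595956-22596205 on the minus strand.

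Tnfaip6: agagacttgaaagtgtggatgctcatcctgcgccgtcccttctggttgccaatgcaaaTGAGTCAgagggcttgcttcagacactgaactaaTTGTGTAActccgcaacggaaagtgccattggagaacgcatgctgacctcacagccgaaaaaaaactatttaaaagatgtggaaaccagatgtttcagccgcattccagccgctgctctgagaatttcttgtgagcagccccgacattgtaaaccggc

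Vcan: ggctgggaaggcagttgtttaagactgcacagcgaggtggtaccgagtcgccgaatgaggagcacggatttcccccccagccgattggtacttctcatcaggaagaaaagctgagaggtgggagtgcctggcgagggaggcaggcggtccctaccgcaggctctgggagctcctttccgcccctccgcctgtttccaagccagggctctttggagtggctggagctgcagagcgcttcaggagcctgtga

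The Tnfaip6 stretch held the AP-1 letters TGAGTCA at 192 bases before the start (position -192) and the C/EBP letters TTGTGTAA at position -158, and the Vcan stretch held none of the 4 motifs. Over all 33469 RefSeq promoters of 300 bases, AP-1 letters occurred in 7.33%, NF-kB letters in 6.05%, the hypoxia element in 19.2% and C/EBP letters in 41.3%. RefSeq entries were matched for 7 of the 9 genes, but those of Has1 and Cd44 begin at a start site inside the gene and are not counted as its upstream promoter. Of the entries of the other 5 genes, that of Tnfaip6 alone held any of the 4 motifs. Whether the entries of Hyal1, Hyal2 and Cemip begin at the gene's outermost start is not shown here. A match is a stretch of letters and not a shown binding site.

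The synthases did not move together. Has1 measured 0.341, 0.435 and 0.0826 CPM in control replicates 1, 2 and 3 and 22.3, 8.85 and 2.79 CPM in ACS replicates 1, 2 and 3. The lowest ACS library was 6.41 times the highest control library, and the ACS libraries differed among themselves in the order of replicates 1, 2 and 3. Has1 rose by a log2 fold change of 5.29 (SE 0.885, 95% interval 3.27 to 7.30, edgeR adjusted p = 0.0240), or 4.35 without ACS replicate 1 (edgeR adjusted p = 0.00959). Has1 (ENSRNOG00000010994) spans 59720612 to 59732409 on the minus strand of chromosome 1 on the rat build Rnor 6.0.

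Has2, the synthase of long hyaluronan chains and the one required for embryonic heart development, measured 1.56, 4.45 and 1.82 CPM in control and 6.36, 1.13 and 0.502 CPM in ACS. Its groups overlapped: ACS replicate 1 was the highest of the 6 libraries and ACS replicates 2 and 3 were the lowest. The log2 fold change was -0.01 (SE 0.850, edgeR adjusted p = 0.996) with a 95% interval from -1.95 to 1.93. Its sign depended on the libraries and scaling used: it was -1.66 without ACS replicate 1 and 0.55 without control replicate 2 (edgeR adjusted p = 0.150 and 0.810).

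Has3, which makes shorter chains, measured 1.95, 0.774 and 1.65 CPM in control and 0.842, 0.206 and 0.502 CPM in ACS. Only ACS replicate 1 reached into the control range, above control replicate 2. Its log2 fold change was -1.55 (SE 0.626, 95% interval -2.98 to -0.13) and did not pass (edgeR adjusted p = 0.179). These values rest on 96 control and 22 ACS counts. Has3 overlaps Chtf8, a gene on the opposite strand whose level was 15.7 ± 1.67 CPM in control and 10.1 ± 2.89 CPM in ACS (SD, n = 3 each), and without a stated strand setting for the counting the reads of the pair may not be told apart.

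Scaled by gene length, the mix of synthase mRNA differed between the groups. Has1 made up 21.7%, 15.3% and 6.01% of the summed FPKM (fragments scaled to gene length and library total) of Has1, Has2 and Has3 in control replicates 1, 2 and 3, and 86.8%, 93.5% and 88.4% in ACS replicates 1, 2 and 3. The groups did not overlap, and without ACS replicate 1 the difference of the means was 76.6 percentage points. Has2 was the leading synthase by FPKM in each control library, with 49.9% to 78.5%, and held 6.01% to 12.5% in ACS. By counts not scaled to length, Has3 led in control replicate 1 (50.6% against 40.5% for Has2). Has2 led by counts in control replicates 2 and 3 (78.6% and 51.2%). The control shares of Has1 rest on 7, 9 and 2 counts. Has3 held 6.23% to 28.4% in control and 0.498% to 3.64% in ACS. The mean Has1 share was higher in ACS by 75.2 percentage points, and with 3 libraries a group no exact permutation test can go below 0.1.

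**Figure D2:**
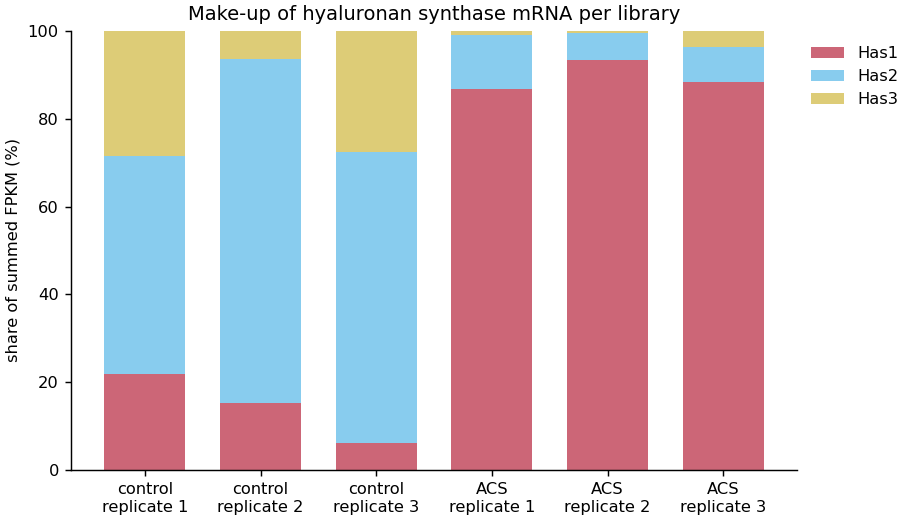
Share of the summed FPKM of Has1, Has2 and Has3 in each of the 6 libraries, in percent. Has2 is the largest part in the 3 control libraries (49.9% to 78.5%) and Has1 in the 3 ACS libraries (86.8% to 93.5%).

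The summed synthase level, in CPM per kilobase of gene length, was 0.750, 1.36 and 0.655 in control and 12.2, 4.52 and 1.51 in ACS. The groups did not overlap, though ACS replicate 3 lay close to control replicate 2. Has2 and Has3 together were at 0.785 ± 0.317 in control and 0.695 ± 0.800 in ACS (SD, n = 3 each) and overlapped between groups.

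The hyaluronidases sit side by side on chromosome 8. Hyal2, a hyaluronidase anchored at the cell surface that cuts long chains, measured 23.8, 22.4 and 23.4 CPM in control and 27.7, 28.6 and 19.3 CPM in ACS. ACS replicates 1 and 2 were above every control library and ACS replicate 3 below. Its log2 fold change was 0.12 (SE 0.252, 95% interval -0.46 to 0.69, edgeR adjusted p = 0.803). It was -0.21 under library totals, a scaling that moved the median of all genes to -0.32.

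Hyal1, the lysosomal hyaluronidase, measured 32.8, 34.9 and 28.5 CPM in control and 94.7, 180 and 51.3 CPM in ACS. Each ACS library was above each control library, and ACS replicate 2 was the highest, unlike the other genes of the set with separated groups. A log2 fold change of 1.76 (SE 0.429, 95% interval 0.79 to 2.74) did not pass (edgeR adjusted p = 0.0562). It was 1.14 without ACS replicate 2 (edgeR adjusted p = 0.105), and it passed without ACS replicate 1, at 1.85 (edgeR adjusted p = 0.0411), and without ACS replicate 3, at 2.10 (edgeR adjusted p = 0.0118).

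Hyal1 lies at 116332796 to 116335435 and Hyal2 at 116324040 to 116328978 of chromosome 8, both on the plus strand. Hyal3, a hyaluronidase homologue, begins 1077 bases beyond Hyal1 on the same strand and was in the list of other turnover genes. It measured 2.24, 1.50 and 3.10 CPM in control and 12.4, 28.3 and 15.4 CPM in ACS. As in Hyal1, ACS replicate 2 was the highest library and the groups did not overlap. Hyal3 rose by a log2 fold change of 3.03 (SE 0.439, edgeR adjusted p = 0.0153). LOC100910872, named Naa80 in the RefSeq gene table and encoding an N-acetyltransferase, overlaps Hyal3 on the same strand and begins 1006 bases beyond Hyal1. Its levels were 41.4, 38.3 and 32.9 CPM in control and 58.0, 181 and 50.7 CPM in ACS (log2 fold change 1.37, edgeR adjusted p = 0.130). ACS replicate 2 was the highest library for Hyal1, LOC100910872 and Hyal3 alike, and the sharing of reads among these neighbours was not tested.

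**Figure D3:**
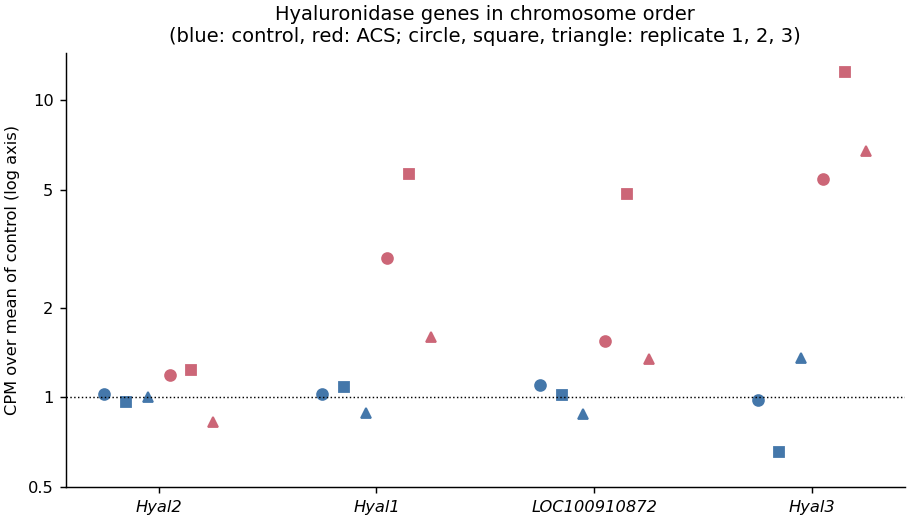
Levels of Hyal2, Hyal1, LOC100910872 and Hyal3, in chromosome order, as CPM over the mean of the control libraries on a log axis, with control libraries in blue and ACS libraries in red. Hyal2 stays between 0.830 and 1.23 in ACS, while ACS replicate 2 reaches 5.63 in Hyal1, 4.83 in LOC100910872 and 12.4 in Hyal3.

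Cemip, which binds hyaluronan and drives its breakdown outside the lysosome, was close to the limit of detection. It had 11, 0 and 12 counts in control replicates 1, 2 and 3 and 22, 13 and 4 in ACS replicates 1, 2 and 3. The groups overlapped, with ACS replicate 3 below control replicates 1 and 3. A count of 0 in control replicate 2 allows a level of up to 0.145 CPM (3 counts, counting error only). The log2 fold change of 1.42 had a 95% interval from -0.98 to 3.81 (SE 1.05, edgeR adjusted p = 0.446), and no difference was detected. The parts of depth and of the spread between libraries in this were not tested.

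Among the binding partners, Cd44, the main cell surface receptor for hyaluronan on leukocytes and connective tissue cells, measured 19.1, 16.1 and 14.8 CPM in control and 416, 99.5 and 62.6 CPM in ACS. Even the lowest ACS library was 3.28 times the highest control library, and ACS replicate 1 held 59.3% of the ACS counts. Cd44 rose by a log2 fold change of 3.53 (SE 0.684, 95% interval 1.97 to 5.09, edgeR adjusted p = 0.0333), or 2.28 without ACS replicate 1 (edgeR adjusted p = 0.00420). Of the 3 genes called it was the 1 that also passed in limma-voom (adjusted p = 0.0430). It spans 92696313 to 92783658 on the minus strand of chromosome 3, and splice forms of the receptor are not told apart by gene counts.

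Vcan encodes versican, a large proteoglycan that binds hyaluronan and swells the provisional matrix of injured tissue. It measured 13.7, 17.6 and 8.26 CPM in control and 708, 74.8 and 60.3 CPM in ACS. ACS replicates 2 and 3 were close to each other, and ACS replicate 1 alone held 74.9% of the ACS counts. Vcan rose by a log2 fold change of 4.41 (SE 0.980, 95% interval 2.18 to 6.65, edgeR adjusted p = 0.0459), and by 2.36 without ACS replicate 1 (edgeR adjusted p = 0.00611). It spans 18490102 to 18565842 on the minus strand of chromosome 2.

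Tnfaip6 measured 0.926, 2.71 and 0.785 CPM in control and 27.1, 5.51 and 4.46 CPM in ACS. All ACS libraries were above all control libraries, by 1.65 times between the nearest pair, and control replicate 2 was the highest control. A log2 fold change of 3.06 (SE 0.812, 95% interval 1.21 to 4.91) did not pass (edgeR adjusted p = 0.0689). It was 1.76 with ACS replicate 1 left out (edgeR adjusted p = 0.0843), and passed at 3.45 with ACS replicate 3 left out (edgeR adjusted p = 0.0322). Tnfaip6 spans 37545238 to 37564699 on the plus strand of chromosome 3.

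**Figure D4:**
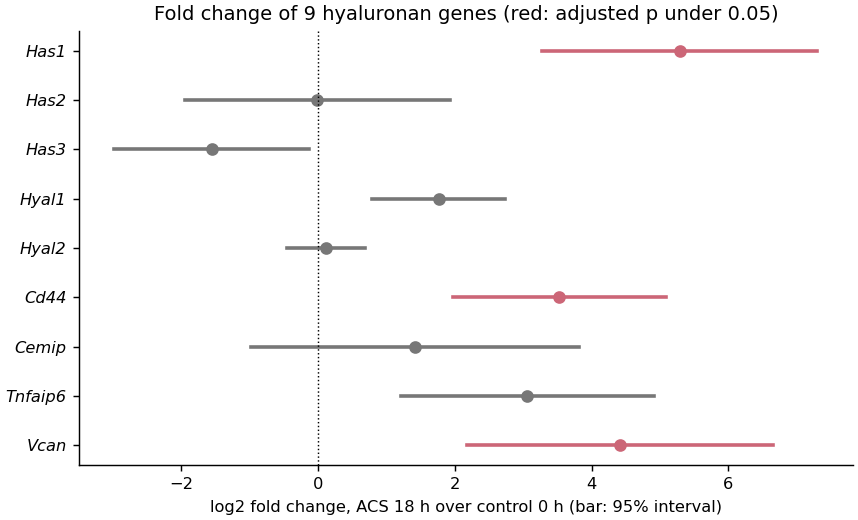
Log2 fold change of the 9 genes, ACS at 18 h over control at 0 h, with 95% intervals as bars and genes with an edgeR adjusted p under 0.05 in red. Has1 (5.29), Vcan (4.41) and Cd44 (3.53) are called, and the intervals of Hyal1, Tnfaip6 and Has3 also miss 0 without a call over all genes.

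Calls of Has1, Cd44 and Vcan were lost when any 1 control library was left out. Adjusted p (edgeR) then lay between 0.111 and 0.149 for Has1, between 0.139 and 0.166 for Cd44 and between 0.171 and 0.197 for Vcan, with 0 calls among all genes and 2063 to 2289 genes at an unadjusted p under 0.05. Over the alternatives Has1 and Cd44 each passed in 13 of 17, Vcan in 9 of 16, Hyal1 in 5 of 17, Tnfaip6 in 3 of 17 and the other 4 genes in 0.

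**Figure D5:**
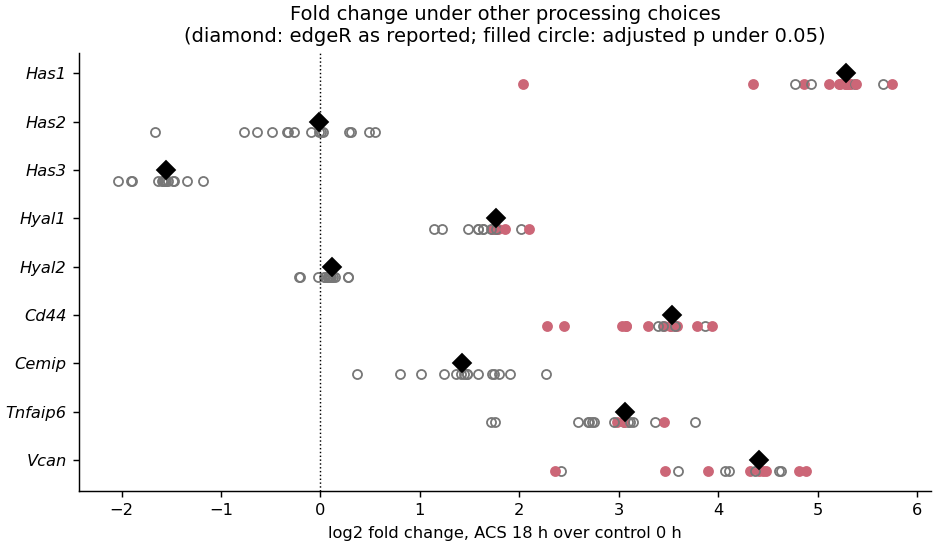
Log2 fold change of each gene under each processing alternative (circles, filled red where the adjusted p is under 0.05) beside the reported value (diamonds). Has1, Cd44, Vcan, Hyal1, Tnfaip6 and Cemip stay above 0 and Has3 below 0 in all alternatives run, while Has2 (-1.66 to 0.55) and Hyal2 (-0.21 to 0.28) lie on both sides.

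The order of the genes by level changed. In control, in CPM per kilobase, Hyal1 was highest at 19.1 ± 1.96, followed by Hyal2 at 11.6 ± 0.371 and Cd44 at 3.39 ± 0.443 (SD, n = 3 each), and the ranges of these genes and of the next did not touch. Tnfaip6 at 1.08 ± 0.787, Vcan at 0.958 ± 0.341 and Has2 at 0.625 ± 0.383 had overlapping ranges, as had Has3 at 0.159 ± 0.0669, Has1 at 0.137 ± 0.0871 and Cemip at 0.0493 ± 0.0428. In ACS the order was Hyal1 at 64.9 ± 39.2, Cd44 at 39.3 ± 39.6, Vcan at 20.4 ± 26.9, Hyal2 at 12.6 ± 2.58, Tnfaip6 at 9.08 ± 9.39 and Has1 at 5.39 ± 4.76. Every neighbouring pair in the ACS order overlapped in range, and no single ACS library had this order. Cd44 was above Hyal1 in ACS replicate 1 (84.8 against 56.5), and Vcan was below Hyal2 in ACS replicates 2 (5.44 against 14.3) and 3 (4.39 against 9.65).

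Enzymes that supply the sugar precursors were listed as 7 genes, of which 3 rose, 0 fell and 4 did not pass. Ugdh, which oxidises UDP-glucose to UDP-glucuronic acid, measured 2.58, 4.69 and 3.96 CPM in control and 87.8, 21.9 and 17.7 CPM in ACS (log2 fold change 3.49, SE 0.645, edgeR adjusted p = 0.0300). Gfpt2, an isoform of the enzyme that opens the hexosamine pathway, measured 6.14, 10.01 and 6.03 CPM in control and 271, 50.8 and 32.0 CPM in ACS (log2 fold change 3.99, SE 0.799, edgeR adjusted p = 0.0363). In both genes every ACS library was above every control library and ACS replicate 1 was highest, and without it they were at 2.40 and 2.48. Uap1, which forms UDP-N-acetylglucosamine, measured 11.0, 11.2 and 9.99 CPM in control and 52.4, 26.3 and 25.2 CPM in ACS (log2 fold change 1.69, SE 0.338, edgeR adjusted p = 0.0363). Gfpt1, the other isoform of the hexosamine enzyme, was at 95.2 ± 8.75 and 115 ± 8.89 CPM (SD, n = 3 each; edgeR adjusted p = 0.515), and Ugp2, Gnpnat1 and Pgm3 had overlapping groups. The list's median log2 fold change was 0.27. Without both "ji" libraries (1 in each group by their description) none of the 3 passed. Their edgeR adjusted p was then 0.0644 for Ugdh, 0.0672 for Gfpt2 and 0.08455 for Uap1. DESeq2 called all 3, and limma-voom called Ugdh and Uap1 but not Gfpt2 (adjusted p = 0.0538).

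Of 9 other turnover genes (10 symbols were listed, 2 of them for the same gene) 5 could be tested, and 1 rose, Hyal3. Tmem2, a surface hyaluronidase now also called Cemip2, measured 89.9, 75.0 and 63.8 CPM in control and 235, 135 and 104 CPM in ACS, without overlap (log2 fold change 1.05, SE 0.348, edgeR adjusted p = 0.114). Hyal4, Hyal5, Hyal6 and Spam1 had 0 counts in all 6 libraries. The lysosomal enzymes Hexa and Gusb, which trim the fragments, had log2 fold changes of -0.13 and -0.06.

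Of 8 other receptors and cytoskeletal linkers 7 could be tested and 0 passed in edgeR, with 3 at an unadjusted p under 0.05. Lyve1, the hyaluronan receptor of lymphatic vessels and some macrophages, had the smallest adjusted p: it measured 2.68, 3.29 and 6.24 CPM in control and 26.0, 14.5 and 9.43 CPM in ACS (log2 fold change 2.02, SE 0.478, edgeR adjusted p = 0.0534). Its groups did not overlap. Of the other lymphatic markers, Flt4 had a log2 fold change of 1.17 with separated groups (edgeR adjusted p = 0.0748) and Prox1 one of -0.03 with overlapping groups (edgeR adjusted p = 0.973). Ezr, a linker between Cd44 and actin, was at 38.4, 2.11 and 4.58 CPM in ACS against 2.49, 2.51 and 1.45 CPM in control (edgeR adjusted p = 0.128). DESeq2 called Lyve1, Ezr and the related linker Msn, limma-voom called 0 of the 7, and limma on FPKM did not call Lyve1 or Msn.

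Of 7 other hyaluronan-binding proteoglycans and link proteins only Acan and Hapln3 could be tested and 0 passed, with 0 at an unadjusted p under 0.05 and 0 in DESeq2 or limma-voom. Acan, the cartilage relative of Vcan, was at 0.830 ± 1.23 CPM in control and 1.37 ± 1.35 CPM in ACS, and Hapln3, a link protein, at 0.543 ± 0.206 and 0.931 ± 0.203 CPM (SD, n = 3 each). Bcan, Ncan, Hapln1, Hapln2 and Hapln4 had at most 4 counts in any library.

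Of 7 heavy chain genes and matrix partners 2 could be tested and 1 rose. Ptx3, a pentraxin that joins heavy chains and TSG-6 in hyaluronan matrices, measured 0.683, 0.339 and 0.743 CPM in control and 124, 22.6 and 16.4 CPM in ACS. All ACS libraries were far above the control libraries. Ptx3 rose by a log2 fold change of 6.50 (SE 0.917, edgeR adjusted p = 0.0153), or 5.03 without ACS replicate 1. Its control libraries held 14, 7 and 18 counts, so it needed its ACS libraries to pass the filter on low counts. The heavy chain genes Itih1, Itih2, Itih3 and Itih4 had at most 16 counts in any library and Ambp, the light chain, had 0 in all 6, while Itih5 was at 9.42 ± 1.68 and 11.3 ± 3.84 CPM (SD, n = 3 each; edgeR adjusted p = 0.661).

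Of 6 proteases that cut versican 2 rose and 0 fell. Adamts1 measured 73.3, 61.9 and 43.6 CPM in control and 402, 213 and 163 CPM in ACS (log2 fold change 2.12, SE 0.400, edgeR adjusted p = 0.0311). It did not pass without ACS replicate 2 (edgeR adjusted p = 0.0507) or without both "ji" libraries (edgeR adjusted p = 0.0678). Adamts4 rose by 4.44 (SE 0.729, edgeR adjusted p = 0.0232), or 3.63 without ACS replicate 1. Adamts9 was higher in every ACS library without passing (log2 fold change 2.16, edgeR adjusted p = 0.0542). Over the 6 lists 7 of 29 tested genes rose and 0 fell, beside 3.43% and 0.707% of all tested genes. The lists were chosen with earlier results of these data known, so these counts are a description and not a test of the lists. The 7 include Ptx3, which needed its ACS libraries to pass the filter. None of the 7 passed when any 1 control library was left out.

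The genes whose log2 CPM followed Has1 most closely over the 6 libraries were Sec23b, PVR and Fndc4, each with a Pearson correlation of 0.996. Those closest to Tnfaip6 were Slc2a1 (0.998), Sh2d4a (0.996) and Pdcd10 (0.995), and those closest to Cd44 were MGC105649 (1.000), Lrrfip2 (0.999) and Mthfd2 (0.999). These correlations share the 2-group design and the high ACS replicate 1: 287, 136 and 482 tested genes correlated with Has1, Tnfaip6 and Cd44 at over 0.95. Within the set, Cd44 and Vcan correlated at 0.986, Tnfaip6 and Vcan at 0.977 and Has1 and Cd44 at 0.969, while Has2 reached at most 0.464 with any other gene of the set.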

How the data were processed

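Total RNA of 6 muscle libraries was depleted of ribosomal RNA before sequencing, per the labels' protocols. The authors deposited whole-number counts per gene and FPKM, with HISAT2 2.0.4, StringTie 1.3.0 and the build Rnor 6.0 listed, per the submitters' processing notes. For the counting tool, strand and multiple matches: not given in the sources used here. These FPKM equalled count over gene length and column total to within 0.1% in 11174 of 11174 genes with 10 or more counts in every library.

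Counts were filtered with filterByExpr (minimum count 10, total 15), leaving 12873 genes, scaled by TMM and tested between groups by quasi-likelihood in edgeR (Benjamini-Hochberg over all genes, threshold 0.05). Standard errors come from the F statistic. The common biological coefficient of variation was 0.381. The procedure was tested on simulated data. The versions were edgeR 4.0.16, DESeq2 1.42.0, limma 3.58.1 and R 4.3.3.

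The 9 genes, the 6 pathway lists (45 symbols, 44 matched) and the markers were chosen with earlier results of these data known. The named genes were all 9 members, genes that passed in each list, or the 2 with the smallest adjusted p, and the 3 closest correlates of Has1, Tnfaip6 and Cd44; other list genes named were chosen after their values were seen. The values of 1 listed gene are not reported here. Of the markers Myh4 and Pecam1 had no matching row. Alternatives covered normalization, test, filter, the replicate block, the "ji" libraries (1 in each group by their description) and leaving out each library. The reported fit did not pair the libraries by replicate number.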

Additional observations from a re-analysis of the deposited data

How the results depend on the processing

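Over all genes, 442 were higher and 91 lower; DESeq2 gave 1320 and 429, limma-voom 262 higher, limma on log2(FPKM + 1) 249 and 268, no filter 755 and 153, library totals 228 lower (345 higher), a term for the "ji" libraries 248 and 32, and leaving both out 171 and 30. The share of calls that were higher, 82.9% as reported, was 60.2% under library totals and 48.2% in limma on FPKM, where the median of all genes was -0.32 and -0.30. Leaving out 1 library gave 0 to 1286 higher and 0 to 398 lower genes. TMM scaling without mitochondrial and haemoglobin genes gave 395 higher and 95 lower. Has1, Cd44 and Vcan were still called with it (edgeR adjusted p = 0.0264, 0.0361 and 0.0491).

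Of the 9 hyaluronan genes 3 were higher as reported, 1 in limma-voom (Cd44), 5 with no filter (Hyal1 and Tnfaip6 added), 1 without both "ji" libraries (Has1) and 0 to 5 when 1 library was left out. DESeq2 called 4 (Has1, Cd44, Hyal1 and Tnfaip6) and gave Vcan no adjusted p. Why it gave none was not tested, and ACS replicate 1 held 74.9% of the ACS counts of Vcan. Of the pathway lists 7 genes were higher as reported, 11 in DESeq2, 4 without both "ji" libraries and 0 to 12 when 1 library was left out, with 0 to 1 lower (Adamts20, without ACS replicate 3). The 4 were Hyal3, Adamts4 and Ptx3 of the 7, and Lyve1, which was not among the 7. The cause of these changes in calls was not tested, and a fit with 1 library left out also has fewer samples. The gain in the Has1 share of synthase FPKM stayed between 71.1 and 78.9 percentage points.

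The log2 fold change of Has2 turned positive with DESeq2 size factors (0.023), in DESeq2 (0.00014) and without both "ji" libraries (0.28). Leaving out 1 library gave -1.66 to 0.55, and it was positive with control replicate 2 (0.55), ACS replicate 2 (0.31) or ACS replicate 3 (0.48) removed. That of Hyal2 turned negative under library totals and limma on FPKM (-0.21 each) and with ACS replicate 2 removed (-0.026), in a leave-one-out range of -0.026 to 0.27.

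Same-numbered libraries correlated at -0.0629, 0.0105 and 0.0397 in their deviations from group means, and differently numbered ones at -0.0686 to 0.0635. With 3 libraries a group such values cannot exclude that libraries are paired. A replicate block gave 442 higher and 63 lower genes, 3 higher among the 9 and 8 in the lists. Depth limits the control levels of Has1, Cemip, Tnfaip6 and Has3, which rest on 18, 23, 94 and 96 counts over the group.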

Other observations

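Rassf1, a tumour suppressor gene 5751 bases from Hyal2 on chromosome 8, measured 9.36, 13.98 and 10.2 CPM in control and 78.0, 33.4 and 17.7 CPM in ACS. Its groups did not overlap, the log2 fold change was 1.94 (SE 0.506, edgeR adjusted p = 0.0647), and ACS replicate 1 was its highest library. For Hyal1, LOC100910872 and Hyal3 in the same neighbourhood the highest library was ACS replicate 2. Ifrd2, which follows them, had overlapping groups at 48.6 ± 9.10 CPM in control and 44.8 ± 18.4 CPM in ACS (SD, n = 3 each). RGD1561582, which is nearer to Hyal2 than Rassf1 at 1859 bases, had overlapping groups too. It was at 31.5 ± 4.19 CPM in control and 20.2 ± 7.08 CPM in ACS (SD, n = 3 each; log2 fold change -0.64, edgeR adjusted p = 0.247). These neighbours were chosen after their values were seen.

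Prg4, which encodes the lubricant proteoglycan lubricin of joint lining and tendon, measured 15.8, 10.1 and 19.2 CPM in control and 1371, 171 and 35.7 CPM in ACS. All ACS libraries were above all control libraries. Within ACS the libraries had the same order as for Has1, an order also seen in Cd44, Vcan, Tnfaip6 and Ptx3 and so not particular to Prg4. The log2 fold change was 5.13 (SE 1.20, 95% interval 2.39 to 7.86) and did not pass (edgeR adjusted p = 0.0522). Of the other markers of tendon and synovial lining, Comp (log2 fold change 2.58) and Tnmd (1.09) were also higher in every ACS library than in any control library, without passing in edgeR (adjusted p = 0.0541 and 0.174). Fmod (1.33), Scx (-0.30) and Mkx (-0.23) had overlapping groups.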
